A study of Mus musculus with 8 samples.

Results

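The complement regulators of the cell membrane were examined in long-term haematopoietic stem cells (LT-HSC) of mouse bone marrow, as 5 genes of 29915 tested: Cd55, Cd55b, Cd59a, Cd59b and Cr1l. They were chosen by symbol through the platform annotation, taking for each gene the probe set with the highest mean over the arrays. Each gene had 1 probe set, so that mean, the only measured value in the rule, decided nothing between probe sets. Cd55b carries its older symbol Daf2 in that annotation. All 5 probe sets passed a filter at the 40th percentile of the mean.

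LT-HSC were sorted as lineage-negative, cKit-positive, Sca-positive, Flk2-negative, CD48-negative and CD150-positive cells, and their RNA was hybridised to 8 Affymetrix arrays. There were 4 groups of 2 arrays: wild-type (WT) mice, without irradiation or with 2 Gy, and CD169-DTR mice, likewise without irradiation or with 2 Gy. CD169-DTR stands for mice labelled CD169DTR/+, which carry 1 allele of the diphtheria toxin receptor at the gene of the macrophage protein CD169. Diphtheria toxin was given to both genotypes, WT included, 72 h before total body irradiation of 2 Gy or a sham treatment, in order to deplete CD169+ macrophages in CD169-DTR mice, with WT as its control. The cells were taken 5 days later. The depletion is therefore set by which cells use the CD169 promoter, and how many mice went into an array is not given in the sources used here. The design text places the replicates of a condition in distinct experiments.

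Complement is a cascade of plasma proteins that tags and lyses microbes, and it also deposits on the body's own cells. Host cells limit it with membrane proteins that act at 2 steps. Cd55 (decay-accelerating factor) and Cr1l (Crry, a rodent regulator) act on the convertases that drive the cascade, whereas Cd59 proteins block the last step, the assembly of the membrane attack pore. Cd55 and Cd59 proteins are typically held by a glycosylphosphatidylinositol (GPI) lipid anchor, and loss of that anchor in blood stem cells causes paroxysmal nocturnal haemoglobinuria in people. Mice have duplicated genes for both: Cd55b encodes a transmembrane form of decay-accelerating factor, and Cd59b is a second Cd59 gene known mainly from testis.

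Cd55 and Cd55b lie next to each other in RefSeq gene order, with 0 protein-coding genes between them, and so do Cd59a and Cd59b. The promoter windows of the Cd55 pair are shown because these genes had their highest values on the irradiated arrays. Each window runs from 250 bases before to 50 bases after the RefSeq start in mouse assembly GRCm38.p6, both on the minus strand, at chr1:130462695-130462994 for Cd55 and chr1:130422994-130423293 for Cd55b. Capitals mark runs of at least 12 identical bases in a global alignment of the 2 windows.
Cd55: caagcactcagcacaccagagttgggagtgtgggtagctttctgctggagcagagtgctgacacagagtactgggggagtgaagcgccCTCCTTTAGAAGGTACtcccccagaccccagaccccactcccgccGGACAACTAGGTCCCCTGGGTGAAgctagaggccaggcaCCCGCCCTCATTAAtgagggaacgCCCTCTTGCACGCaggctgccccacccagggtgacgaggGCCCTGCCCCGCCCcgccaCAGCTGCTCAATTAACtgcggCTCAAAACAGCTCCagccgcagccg
Cd55b: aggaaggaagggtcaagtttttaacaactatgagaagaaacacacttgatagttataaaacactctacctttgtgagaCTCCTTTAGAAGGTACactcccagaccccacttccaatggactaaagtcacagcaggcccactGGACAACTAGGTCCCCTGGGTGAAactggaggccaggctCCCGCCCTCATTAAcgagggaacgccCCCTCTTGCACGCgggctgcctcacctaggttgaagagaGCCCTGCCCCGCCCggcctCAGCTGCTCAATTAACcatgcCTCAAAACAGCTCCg
The windows share 213 identical bases among 260 aligned, 81.9%, and 7 such runs hold 111 bases of each. The longest run has 24 bases, at positions -117 to -94 from the Cd55 start. The windows of Cd59a (chr2:104095551-104095850, plus strand) and Cd59b (chr2:104070816-104071115, plus strand) had 60.9% identity over 243 aligned bases, close to pairs of members that are not duplicates, such as Cd55b with Cd59a (59.8%). The window of Cr1l lies at chr1:195131521-195131820 on the minus strand.

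A search of both strands for 8 motifs, overlaps allowed, gave the following matches. The GC box (GGGCGG), present in 35.7% of all 32851 RefSeq windows of this length, occurred 2 times in each window of the Cd55 pair and in none of the other 3. The E-box letters CAGCTG, present in 16.3% of windows, occurred 1 time in each of the pair, inside a shared run, and in none of the other 3. TGACG, the half-site of the cAMP response element (20.8% of windows), occurred in Cd55 alone, TATAAA (13.6%) in Cd55b alone, and CCAAT (37.4%) in Cd55b and Cd59b. The p53 half-site (8.36% of windows), TGANTCA of AP-1 (7.81%) and TTCNNNGAA of STAT factors (8.30%) matched none of the 5 windows. These matches describe letters in a window and are not evidence of binding.

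The values are those of robust multi-array averaging (RMA), taken as log2, so a difference of 1 is 2-fold. Levels are compared between groups of 1 gene only, never between genes, since probe sets differ in their response. Array medians of the tested probe sets were similar and replicates of a group correlated with r of 0.991 to 0.994 across probe sets. Kit, the stem cell factor receptor of the gate, stood at 14.91 ± 0.03 (SD, n = 2) in non-irradiated WT cells, and Siglec1, the gene of CD169, at 3.90 ± 0.04, below the 40th percentile of 4.40. Of the gate's excluded proteins, Flt3 (Flk2) stood at 7.56 ± 0.62 and Cd48 at 11.11 ± 0.18 there, and Cd48 was 1.44 ± 0.50 (SE) higher after 2 Gy in each genotype (adjusted p = 0.582 in WT and 0.644 in CD169-DTR, limma). Flt3 differed after 2 Gy by -1.0 ± 0.40 in WT (adjusted p = 0.617) and by -1.63 ± 0.40 in CD169-DTR (adjusted p = 0.551). Cdkn1a, a p53 target, stood at 8.13 ± 0.37 without irradiation and 13.24 ± 0.25 after 2 Gy in WT. In CD169-DTR it stood at 9.57 ± 0.32 without irradiation and 13.24 ± 0.01 after 2 Gy. Without irradiation it was thus 1.44 ± 0.24 (SE) higher in CD169-DTR than in WT (adjusted p = 0.936, limma).

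Cd55 had its 4 highest values on the 4 irradiated arrays. In WT it read 10.90 and 11.05 without irradiation and 12.76 and 12.18 after 2 Gy. In CD169-DTR it read 11.35 and 11.21 without irradiation and 12.03 and 11.69 after 2 Gy. The irradiated and non-irradiated arrays did not overlap in either genotype, nor when both genotypes were put together, and WT 2 Gy replicate 1 was the highest of all 8.

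Cd55b showed the same order of groups at its own level. It read 7.02 and 7.23 in WT without irradiation and 8.16 and 8.19 after 2 Gy. In CD169-DTR it read 7.58 and 7.31 without irradiation and 7.77 and 7.92 after 2 Gy. Again no irradiated array overlapped with a non-irradiated one. For both genes the means ran upwards from non-irradiated WT through non-irradiated CD169-DTR, then irradiated CD169-DTR, to irradiated WT cells, and no neighbours in that order differed past an adjusted p of 0.05. Because Cd55 and Cd55b are duplicates, whether their probes read each other's transcripts was not tested, and the pair may not be 2 independent readings.

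Cd59a, the main Cd59 gene of mouse blood cells, varied as much within groups as between them. It read 10.57 and 10.22 in WT non-irradiated, 9.52 and 10.46 in WT 2 Gy, then in CD169-DTR 10.03 and 9.43 without irradiation and 10.11 and 9.25 after it. Its residual SD of 0.513 was at the 95.3rd percentile of all tested probe sets, so the arrays bound its differences only loosely. Cd59b read 9.44 on both WT non-irradiated arrays, 8.61 and 9.36 in WT 2 Gy, then in CD169-DTR 9.12 and 9.26 without irradiation and 9.24 and 9.04 after it. Its lowest value, like the lower Cd59a value in WT 2 Gy, came from WT 2 Gy replicate 1, where Cd55 was highest.

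Cr1l, the regulator that acts on convertases in most rodent cells, spanned the narrowest range of the 5. It read 14.16 and 14.12 in WT non-irradiated, 14.04 and 14.05 in WT 2 Gy, then in CD169-DTR 14.45 and 13.97 without irradiation and 14.07 and 14.13 after it. The group means differed by at most 0.165 log2, and the CD169-DTR non-irradiated arrays alone were 0.48 apart. The SD over the 8 arrays, 0.145, was at the 30.1st percentile of all tested probe sets.

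**Figure D1:**
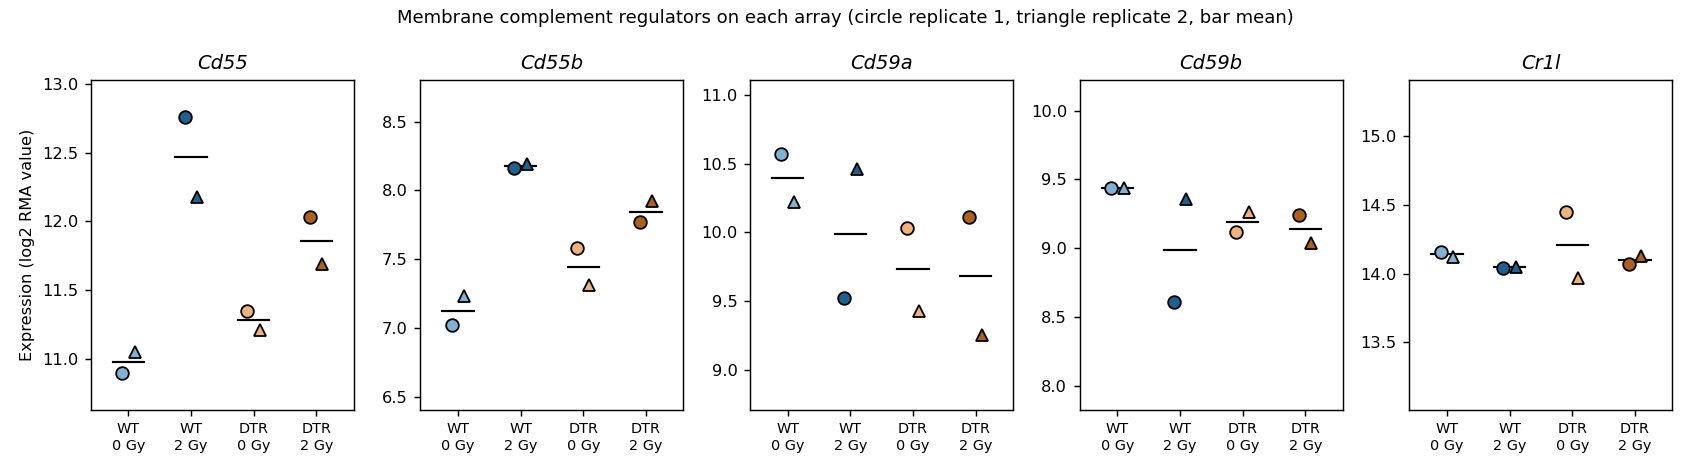
Log2 RMA value (vertical axes, each spanning 2.4 log2) of the 5 genes on each of the 8 arrays, by group (0 Gy is non-irradiated, DTR is CD169-DTR). Circles are replicate 1, triangles replicate 2 and bars the mean of 2; Cd55 and Cd55b have all 4 irradiated arrays above all 4 non-irradiated arrays, while Cr1l stays between 13.97 and 14.45.

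In WT, the control for the depletion, the comparison of doses asks what differs in LT-HSC 5 days after 2 Gy. Cd55 was higher by 1.49 ± 0.22 log2 (SE), 2.82-fold with a 95% interval of 1.96 to 4.06, and Cd55b by 1.05 ± 0.15, 2.07-fold (1.62 to 2.64). In bulk RNA a different share of cells and a different amount of RNA per cell cannot be told apart. Neither gene passed: the limma adjusted p, taken over all 30294 tested probe sets, was 0.301 for each. By unadjusted p (0.000327 and 0.000237) they ranked 29th and 21st among those probe sets. With limma 0 of the 5 genes were called, against 0.0099% of all probe sets (3 of 30294), and 2 of 5 had an unadjusted p under 0.05 against 7.81%. With a fold change of at least 1.5 besides, the same 2 genes remain, against 3.31% of all. Irradiated arrays lay above both controls for 31.4% of all probe sets, so the lack of overlap in 2 against 2 arrays says little by itself. The intervals here and below are not adjusted for the number of probe sets.

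The remaining genes had no difference that passed in WT. Cd59b and Cr1l did not overlap between the doses there either, with both irradiated arrays below both controls. In either direction, 44.7% of all probe sets did not overlap in WT. Cd59a differed by -0.41 ± 0.41 log2 (adjusted p = 0.778 in limma), with an interval from -1.39 to 0.58. Cd59b differed by -0.46 ± 0.24 (adjusted p = 0.667), or by -0.08 without WT 2 Gy replicate 1 and -0.83 without its partner, and Cr1l by -0.10 ± 0.17 (adjusted p = 0.869, interval -0.50 to 0.31). The Cr1l interval ends at a 1.24-fold higher level, and that of Cd55 begins at 1.96-fold. Whether the genes differ in their response was not tested.

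In CD169-DTR mice, treated to deplete CD169+ macrophages, the same comparison gave smaller differences for the Cd55 pair. Cd55 was 0.58 ± 0.22 log2 higher after 2 Gy, 1.49-fold (1.04 to 2.15, adjusted p = 0.693 in limma), and Cd55b 0.40 ± 0.15, 1.32-fold (1.04 to 1.68, adjusted p = 0.668). Cd59a and Cd59b each differed by -0.05, with an SE of 0.41 and 0.24, and Cr1l by -0.11 ± 0.17. With limma 0 of 5 genes were called, as were 0% of all probe sets, and 2 of 5 had an unadjusted p under 0.05 against 6.77% of all. The irradiated arrays lay above both controls for 17.8% of all probe sets.

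Averaged over both genotypes, which sets 4 irradiated against 4 non-irradiated arrays, Cd55 was 1.04 ± 0.16 log2 higher (2.05-fold, 1.59 to 2.66) and Cd55b 0.72 ± 0.10 (1.65-fold, 1.39 to 1.96). The limma adjusted p was 0.209 for each, the smallest that the pair had in any of the 6 comparisons. Irradiated arrays lay wholly above non-irradiated ones in this setting for 3.76% of all probe sets, Cd55 and Cd55b among them. With limma 0 of 5 genes were called against 0.0099% of all, and 2 of 5 had an unadjusted p under 0.05 against 9.23%, or 1.94% with a fold change of at least 1.5, which both genes had. Cd59a (-0.23 ± 0.29), Cd59b (-0.25 ± 0.17) and Cr1l (-0.10 ± 0.12) overlapped between the doses.

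The comparison of genotypes asks whether LT-HSC differ in the mice treated to deplete CD169+ macrophages. Toxin was given to every group, so the depletion and the genotype itself cannot be told apart. Without irradiation, Cd55 was 0.31 ± 0.22 log2 higher in CD169-DTR than in WT and Cd55b 0.32 ± 0.15, while Cd59a was lower by 0.67 with an SE of 0.41 and Cd59b by 0.25 with an SE of 0.24. Cr1l differed by 0.07 ± 0.17. With 1 array left out, Cd55b ranged from 0.185 to 0.455, and Cd59a from -0.965 without CD169-DTR non-irradiated replicate 1 to -0.365 without replicate 2 of that group. The adjusted p was 0.999 for each of the 5 in limma, 0% of all probe sets were called, and 0 of 5 had an unadjusted p under 0.05 against 4.38% of all.

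After 2 Gy the sign of the Cd55 pair was turned. Cd55 stood 0.61 ± 0.22 log2 lower in CD169-DTR than in WT, 1.53-fold (adjusted p = 0.648 in limma), and Cd55b 0.33 ± 0.15 lower (adjusted p = 0.676). Without WT 2 Gy replicate 1 the Cd55 difference was -0.32 log2, and without CD169-DTR 2 Gy replicate 2 as well it was -0.15. Cd59a was 0.31 ± 0.41 lower, Cd59b 0.16 ± 0.24 higher and Cr1l 0.06 ± 0.17 higher. With limma 0 of 5 genes and 0% of all probe sets were called, and 1 of 5, Cd55, had an unadjusted p under 0.05 against 7.57%, or 3.56% with a fold change of at least 1.5, which Cd55 had.

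The difference between the irradiation effects was itself tested. The effect in CD169-DTR minus that in WT was -0.92 ± 0.31 log2 for Cd55 (interval -1.66 to -0.17) and -0.65 ± 0.21 for Cd55b (-1.14 to -0.16), with an adjusted p of 0.913 for each in limma. A smaller effect in CD169-DTR was therefore not shown. Without WT 2 Gy replicate 1 the Cd55 value was -0.63, and without that array and CD169-DTR 2 Gy replicate 2 it was -0.46. For Cd55b it was -0.67 and -0.74 in the same settings. Cd59a (0.36 ± 0.58), Cd59b (0.41 ± 0.34) and Cr1l (-0.02 ± 0.24) had wide intervals around 0. Here too 0 of 5 genes and 0% of all probe sets were called, and 2 of 5 had an unadjusted p under 0.05 against 5.17%, or 4.01% with a fold of at least 1.5, which both had.

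**Figure D2:**
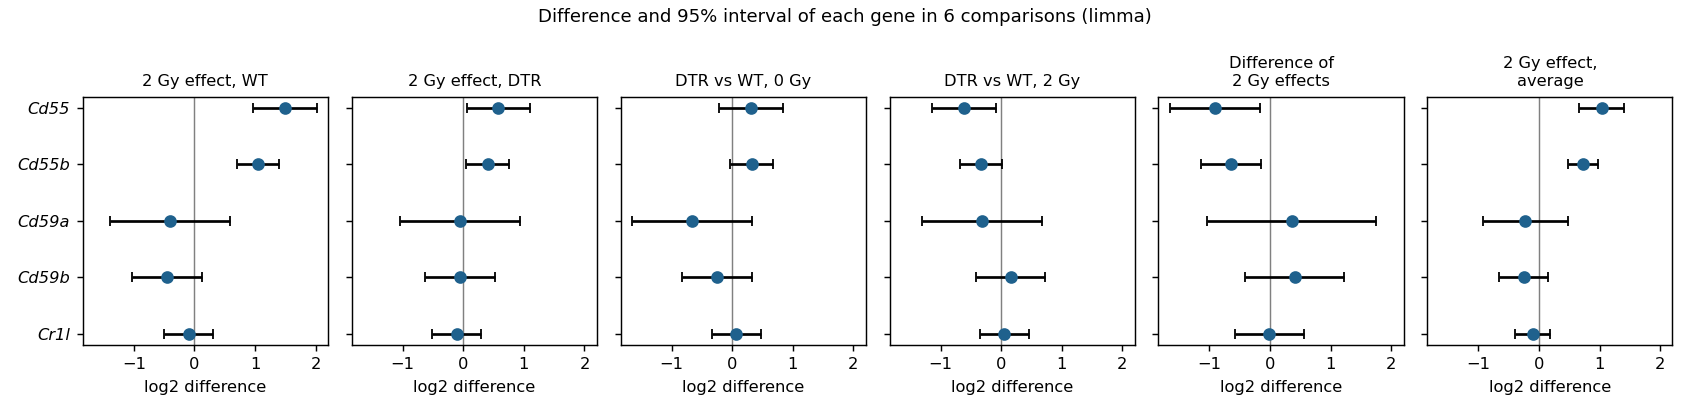
Log2 difference (horizontal axis) of each of the 5 genes in the 6 comparisons, with points for the limma estimate and bars for its unadjusted 95% interval; 0 Gy is non-irradiated and DTR is CD169-DTR. Cd55 and Cd55b lie to the right of 0 in the 3 irradiation panels (1.49 and 1.05 in WT), and no gene passed an adjusted p of 0.05 in any panel.

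Genes listed as markers of other lineages also varied between these arrays. Megakaryocyte and platelet genes (10 of 13 measured, 8 of 10 higher after 2 Gy in WT and 7 of 10 in CD169-DTR) were compared with their own average of all 8 arrays. The list stood 1.07 log2 above it in WT 2 Gy replicate 1, the array with the highest Cd55, and 0.41 above it in CD169-DTR 2 Gy replicate 1, the third highest. They stood at -0.26 in WT 2 Gy replicate 2, the array with the second highest Cd55, and at -0.18 in CD169-DTR 2 Gy replicate 2. Neutrophil and granulocyte progenitor genes (14 of 14 measured, 13 of them higher after 2 Gy in WT and 5 in CD169-DTR) stood 0.51 and 0.95 above their average in the WT 2 Gy arrays and at -1.21 and -0.53 in the WT non-irradiated arrays. In CD169-DTR they stood at -0.05 and 0.40 without irradiation and at 0.32 and -0.39 after it. Without WT 2 Gy replicate 1, Cd55 was 1.21 log2 higher after 2 Gy in WT and Cd55b 1.07. The irradiated WT array that remains there, replicate 2, is the one with the neutrophil list at 0.95. The mean level of the megakaryocyte list lay between 8.80 and 10.4 and that of the neutrophil list between 7.30 and 9.46 over the arrays, above the 40th percentile of 4.40 throughout. Whether the genes of these lists were read from LT-HSC or from other cells was not tested. Nor was the part of other cells in the Cd55 values.

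Erythroid genes (9 of 16 measured) ranged from -1.01 log2 in CD169-DTR 2 Gy replicate 2 to 1.28 in CD169-DTR non-irradiated replicate 2. Of the 9, 4 were higher after 2 Gy in WT and 0 in CD169-DTR, with median differences of -0.33 and -0.605. Mast cell, basophil and eosinophil genes (9 of 10 measured) ranged from -0.96 in CD169-DTR non-irradiated replicate 1 to 0.71 in CD169-DTR 2 Gy replicate 1. In CD169-DTR both irradiated arrays stood above both others. After 2 Gy 4 of these 9 were higher in WT and 8 in CD169-DTR. With limma 0 of them in WT and 4 in CD169-DTR had an unadjusted p under 0.05, against 7.81% and 6.77% of all probe sets. The list mean of LT-HSC identity genes (13 of 16 measured) stayed within -0.24 and 0.16. Averaged over both genotypes, 1 of these 13 was higher and 5 were lower after 2 Gy at an unadjusted p under 0.05. The share of all probe sets was 9.23%, and 0 of the 13 were called. Kit differed by -0.515 ± 0.08 (adjusted p = 0.209 in limma) and Hlf by -0.55 ± 0.09 (adjusted p = 0.235). The mean of lymphoid genes (12 of 13) stayed within -0.20 and 0.19, and that of monocyte and macrophage genes (13 of 14) within -0.20 and 0.29. The mean of endothelial and stromal genes (9 of 10) ranged from -0.30 to -0.05 on the irradiated arrays. On the other arrays it ranged from 0.07 to 0.17, without overlap. Of these 9 genes, 5 passed the filter on mean level. Their median difference after 2 Gy was 0.04 in WT and 0.03 in CD169-DTR, with 5 of 9 higher in each. The lowest gene differed by -1.04 in WT and -2.32 in CD169-DTR, so the list was not lower as a set. The mean of the genes of lineage and excluded gate proteins (7 of 8) stayed within -0.11 and 0.20. It averages genes that moved in opposite directions after 2 Gy, with Cd48 at 1.44 in each genotype and Flt3 at -1.0 in WT and -1.63 in CD169-DTR.

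**Figure D3:**
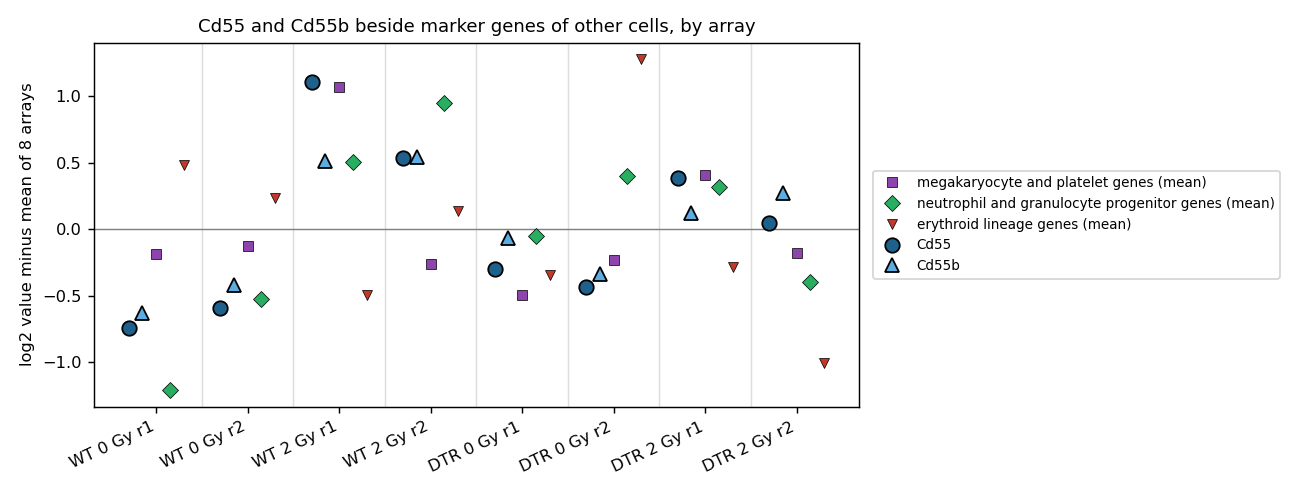
Log2 value minus its mean over the 8 arrays (vertical axis) for Cd55, Cd55b and the mean of 3 marker lists, by array (r1 and r2 are replicates, DTR is CD169-DTR). Cd55 and the megakaryocyte genes are both highest in WT 2 Gy replicate 1, where the list stands at 1.07, while in WT 2 Gy replicate 2 Cd55 is high and the list is at -0.26.

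Genes with the pattern most like that of Cd55 over the 8 arrays were sought among 4589 others. These had a mean above the 40th percentile and an SD of at least 0.3 log2. Predicted genes (Gm and Rik names) and olfactory receptors were passed over, so the ranks hold within that set. The 5 highest Pearson r were those of Mmp2 (0.945), a matrix metalloproteinase, Selp (0.945), P-selectin of platelets and endothelium, Tbx19 (0.942), Mir34a (0.939), a microRNA gene, and Cavin2 (0.930), a caveola protein. Cd55b came sixth with 0.923. For Cd55b the 5 highest were Mmp2 (0.953), Cip2a (0.952), Mir34a (0.952), Cdkn1a (0.941) and Snord104 (0.931), with Cd55 eighth. The arrays share the dose groups, so genes with any difference between the doses score high, and no p is given. Against Cd55, Cd59a had r of -0.271, Cd59b -0.724 and Cr1l -0.32. Selp is also 1 of the listed megakaryocyte genes. Mmp2 and Mir34a are on both lists, and Mmp2, like Cdkn1a, belongs to the 3 probe sets called in WT.

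Of 4 tested neighbours of the Cd55 pair, 3 had small positive differences after 2 Gy in both genotypes, none of which passed, and Cxcr4 had a negative one. Those 3, Thsd7b, Zp3r and C4bp, had means over the arrays of 4.02, 3.72 and 3.54, below the filter level of 4.4. The median difference of all probe sets was 0.075 in WT and 0.035 in CD169-DTR, so their shared sign says little by itself. Cxcr4, which encodes the receptor of Cxcl12, lies 2 protein-coding genes away, past Thsd7b, and is the third probe set called in WT, with a difference of -1.66 log2 (adjusted p = 0.0397 in limma). Thsd7b differed by 0.19 in WT (adjusted p = 0.724). On the other side, Zp3r differed by 0.12 (adjusted p = 0.798) and C4bp, a soluble complement regulator, by 0.03 (adjusted p = 0.952). Beside Cr1l lie Cd46 and Cr2, both complement genes. Cd46, a cofactor for cleavage of deposited complement that is confined largely to testis in mice, read 5.80 and 5.71 in WT non-irradiated and 7.34 and 6.02 in WT 2 Gy LT-HSC, a difference of 0.93 ± 0.45 (adjusted p = 0.659). Its highest value again came from WT 2 Gy replicate 1. Cr2, a complement receptor of B cells, differed by -0.06 (adjusted p = 0.933). Beside the Cd59 pair, Fbxo3 differed by 0.42 (adjusted p = 0.660) and Lmo2, a regulator of blood stem cells, by -0.46 (adjusted p = 0.489).

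Among the other regulators of complement, 15 of 18 listed genes were measured, 5 of them above the 40th percentile. With limma 0 passed the adjusted threshold in the 6 comparisons, and in CD169-DTR after 2 Gy 1 of 15 had an unadjusted p under 0.05, a share near the 6.77% of all probe sets. That gene was Cfp (properdin, which stabilises the alternative convertase and so promotes the cascade). It read 7.02 and 7.46 in CD169-DTR non-irradiated and 8.62 and 9.50 in CD169-DTR 2 Gy LT-HSC, against 7.08 and 7.23, then 7.88 and 7.61 in WT. The irradiated arrays lay above the controls in both genotypes, by 1.82 ± 0.30 log2 in CD169-DTR (adjusted p = 0.466) and 0.59 ± 0.30 in WT (adjusted p = 0.666). Thbd (thrombomodulin) differed by 0.36 ± 0.20 on average over both genotypes (adjusted p = 0.608). In WT the list's median difference was 0.17 against 0.075 for all probe sets.

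The components of the cascade, largely made by the liver, included 24 of 28 measured genes, 12 of them above the 40th percentile. None was called in any comparison with limma. After 2 Gy 0 of 24 had an unadjusted p under 0.05 in WT and 1 in CD169-DTR, against 7.81% and 6.77% of all probe sets, and their median difference after 2 Gy was 0.12 log2 in WT and 0.07 in CD169-DTR, against 0.075 and 0.035 for all probe sets. C2, a convertase subunit, read 4.23 and 4.86 in WT non-irradiated and 5.54 and 6.29 in CD169-DTR non-irradiated LT-HSC, a difference of 1.37 ± 0.55 (adjusted p = 0.999). Colec11, a collectin that starts the lectin pathway, differed by 0.30 ± 0.10 on average after 2 Gy (adjusted p = 0.463), and C8g, a subunit of the membrane attack complex, by 0.43 ± 0.18 in CD169-DTR (adjusted p = 0.738).

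Of 10 complement receptor genes, all measured and 6 above the 40th percentile, 0 were called in any comparison with limma. After 2 Gy 1 had an unadjusted p under 0.05 in WT and 2 in CD169-DTR, against 7.81% and 6.77% of all probe sets. Itgb2, the beta chain of the integrin receptors for complement fragments, was 1.24 ± 0.37 log2 higher after 2 Gy on average (adjusted p = 0.443), with 9.14 and 7.33 in WT 2 Gy against 6.97 and 6.71 in WT non-irradiated LT-HSC. Itgam, one of its partner chains, differed by 0.34 ± 0.16 in WT and by -0.49 ± 0.16 in CD169-DTR, and the difference of these effects had an adjusted p of 0.875. Cd93, a receptor of early blood progenitors once proposed to bind complement, was 0.50 ± 0.19 higher after 2 Gy in CD169-DTR (adjusted p = 0.680).

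GPI anchor synthesis, on which surface display of Cd55 and Cd59 proteins depends, had 26 of 29 genes measured, all 26 above the 40th percentile. None was called in any comparison with limma. In WT, 4 of 26 had an unadjusted p under 0.05 after 2 Gy, all lower, against 7.81% of all probe sets in either direction. Those higher made up 4.6% of all probe sets. The median was -0.11 log2 against 0.075 for all probe sets. In CD169-DTR 2 were higher and 1 lower by that count, against 6.77% of all, and the median was 0.03 against 0.035. After 2 Gy, 7 were higher in CD169-DTR than in WT by that count and 0 lower, against 3.86% of all probe sets higher, with a median of 0.21 against -0.02. Pigl, the enzyme of an early step, was 1.04 ± 0.19 higher after 2 Gy in CD169-DTR (adjusted p = 0.501) and differed by -0.04 in WT. Pigx, a subunit of a mannosyltransferase, differed by -0.54 ± 0.18 in WT and 0.56 ± 0.18 in CD169-DTR. The difference of the 2 effects for Pigx, 1.09 ± 0.25, had an adjusted p of 0.839. Pgap2, which remodels the anchor lipid, was 0.68 ± 0.15 lower in CD169-DTR after 2 Gy (adjusted p = 0.536).

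Other GPI-anchored surface proteins of blood cells had 21 of 23 genes measured, 17 above the 40th percentile. With limma 0 were called in any comparison, and 5 of 21 had an unadjusted p under 0.05 in WT after 2 Gy, all higher, against 4.6% of all probe sets higher. The median was 0.06 log2 against 0.075 for all probe sets, so in this comparison the list as a whole stood near the rest. Between genotypes after 2 Gy, 5 of 21 were lower in CD169-DTR than in WT by that count and 0 higher. The share of all probe sets was 7.57% in either direction, with 3.86% of all higher. The list median was 0.03 against -0.02. Ly6c1 read 7.69 and 7.68 in WT non-irradiated and 8.49 and 8.71 in WT 2 Gy, then 7.85 and 7.60 in CD169-DTR non-irradiated and 8.26 and 8.04 in CD169-DTR 2 Gy LT-HSC. Like the Cd55 pair it had no overlap between doses, and its average difference was 0.67 ± 0.11 (adjusted p = 0.235). Ly6c2, its close relative and likewise an antigen of myeloid cells, was 1.47 ± 0.28 higher on average (adjusted p = 0.302). Whether the probes of these near-identical genes tell them apart was not tested. Cd52, a small antigen of lymphocytes, differed by 0.89 ± 0.22 in WT and -0.42 ± 0.22 in CD169-DTR, and the difference of effects had an adjusted p of 0.874.

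**Figure D4:**
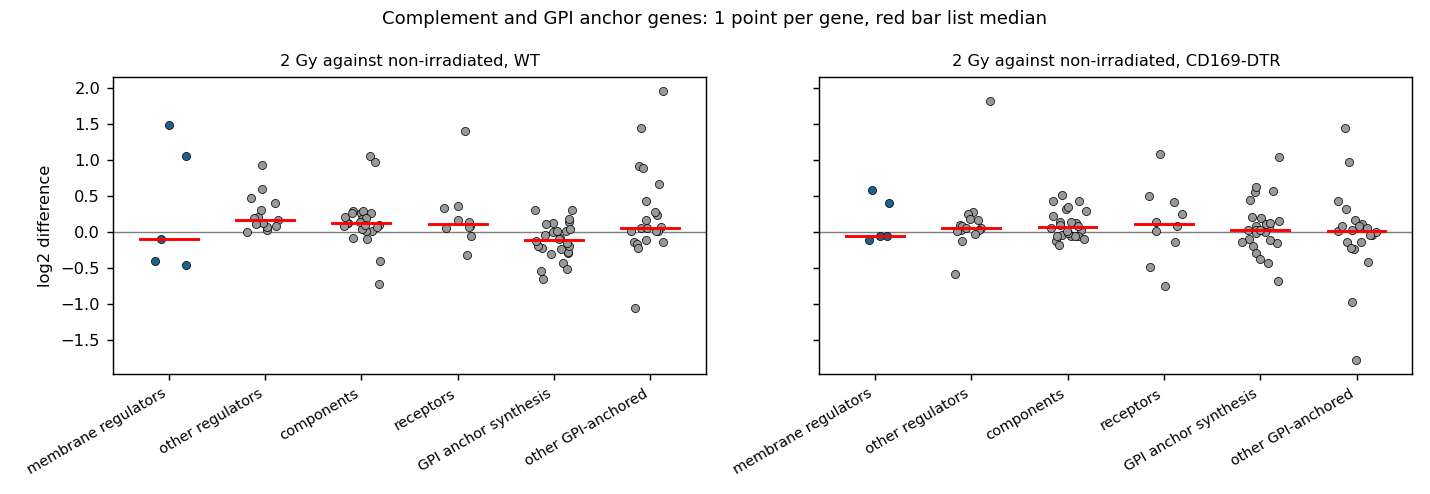
Log2 difference between 2 Gy and non-irradiated LT-HSC (vertical axis) for each measured gene of the membrane regulators and 5 further lists, in WT (left) and CD169-DTR (right), with red bars for list medians and sideways scatter without meaning. Cd55 (1.49) and Cd55b (1.05) are the 2 upper blue points in WT, and the medians of the other lists lie between -0.11 and 0.17.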

How the data were processed

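RNA of sorted LT-HSC was measured on 8 arrays, 2 in each of 4 groups taken from the sample titles. The deposited table holds 1 log2 value per probe set and array, made by the authors with RMA per the submitters' processing notes; log2 is the convention of RMA and is not stated in the table. Software version, filters and genome build are not given in the sources used here. Values were used as deposited. Of 40161 probe sets, 30294 carried 1 gene symbol and were tested, 2145 carried several and 7722 none; 22546 were matched to RefSeq genes of GRCm38.p6 by Entrez ID, which updated 827 symbols and served for names and gene order. Promoter windows come from the RefSeq table of the same assembly.

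All comparisons come from 1 limma 3.58.1 model (R 4.3.3) of 4 group means, with 4 residual and 2.59 prior degrees of freedom. P values are two-sided and Benjamini-Hochberg adjusted over the 30294 probe sets, and 0.05 is the threshold. The script was tested on simulated data. An exact permutation test of 2 against 2 arrays cannot go below p = 0.333 and was not used. The design text gives distinct experiments for the replicates, but not how many animals each array holds; p-values measure the spread between these arrays, whose number limits the precision.

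The 5 genes, the lists and the comparisons were chosen with earlier results of these data known. Pathway genes were named by the smallest unadjusted p, up to 3 a list, and neighbours by gene order. Of the listed genes, those without a tested probe set, such as Adgre5, the receptor partner of Cd55, are not analysed here. No protein sequences were used here. The alternatives were an intensity trend with robust hyperparameters, the 40th percentile filter, all probe sets, median centring or cyclic loess, a block for the replicate number, weights per array, fits on the compared groups alone, a rule on unadjusted p and fold, and leaving out each array in turn.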

Additional observations from a re-analysis of the deposited data

How the results depend on the processing

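No gene of the 5 was called at an adjusted p under 0.05 in any of the 6 comparisons under any alternative that kept that rule, and Cd55 and Cd55b kept their direction in every comparison under every alternative run. Their difference after 2 Gy in WT ranged from 1.21 to 1.79 log2 for Cd55 (adjusted p from 0.132 to 0.813) and from 0.935 to 1.16 for Cd55b (0.202 to 0.813). With an unadjusted p under 0.05 and a fold change of at least 1.5 in place of the adjusted p, 2 of 5 genes were called in WT (Cd55 at 1.49 and Cd55b at 1.05; 3.31% of all probe sets), 2 on average over genotypes (1.04 and 0.725; 1.94%), 2 for the difference of effects (-0.915 and -0.65; 4.01%) and 1 between genotypes after 2 Gy (Cd55 at -0.61; 3.56%). Over all probe sets, the calls in WT were 3 and ranged from 0 to 16 over the alternatives, and those of the average were 3 and ranged from 1 to 12. In the comparisons with 0 calls they reached 5 for CD169-DTR after 2 Gy, 6 and 11 between genotypes without and with irradiation, and 7 for the difference of effects. The highest counts came without WT 2 Gy replicate 2 (16, 12, 11 and 7), without CD169-DTR non-irradiated replicate 1 (5) and without CD169-DTR non-irradiated replicate 2 (6).

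With 1 array left out and the sign kept, Cd59b ranged from -0.83 to -0.08 log2 in WT, from -0.44 to -0.065 on average and from 0.03 to 0.78 for the difference of effects, with the values nearest 0 without WT 2 Gy replicate 1. In CD169-DTR after 2 Gy, Cd55 ranged from 0.41 to 0.75 and Cd55b from 0.265 to 0.535. Signs turned for the other 3 genes, none of which was called; the cause was not tested. With 1 array left out, Cd59a after 2 Gy ranged from -0.875 to 0.065 log2 in WT, from -0.48 to 0.38 in CD169-DTR and from -0.463 to 0.0075 on average, from -0.78 to 0.16 between genotypes after 2 Gy and from -0.115 to 0.825 for the difference of effects. Cd59b ranged from -0.15 to 0.05 in CD169-DTR and from -0.22 to 0.53 between genotypes after 2 Gy. Cr1l ranged from -0.35 to 0.13 in CD169-DTR, from -0.222 to 0.0175 on average, from -0.17 to 0.31 between genotypes without irradiation and from -0.255 to 0.225 for the difference of effects, which was 0.08 with median centring. With WT 2 Gy replicate 1 and CD169-DTR 2 Gy replicate 2 both left out, a setting chosen after seeing the data, Cd59a was 0.065 in WT, 0.38 in CD169-DTR and 0.223 on average, and Cd59b 0.05 in CD169-DTR and -0.12 between genotypes after 2 Gy.

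With the replicate block, Cd55 in WT was 1.49 with an adjusted p of 0.449 and no gene of the 5 was called; the count over all probe sets in WT was 1. Deviations of same-numbered arrays correlated between -0.0877 and 0.159 over the 6 pairs of groups. These correlations cannot decide whether same-numbered arrays of different groups came from the same experiment, since a shared experiment need not leave correlated deviations. A second probe set per gene could not be tried, since each gene has 1. Leaving out an array makes its group a single array, which is then taken to vary as the rest do.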
